A study of Mus musculus with 2 samples.

Results

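The MYC and MAX network is the group of basic helix-loop-helix leucine zipper transcription factors that pair with MAX or with its relative MLX. Its members were taken as the non-control probes whose gene name on the array was Myc, Mycn, Max, Mxd1, Mxd3, Mxd4, Mxi1, Mnt, Mga or Mlx. This gave 12 probes on 13 spots for all 10 genes, of 55681 probes and 22221 named genes in all. Measured was the total RNA of P5424, a mouse T-cell line labelled as knockout for Rag2, a subunit of the antigen receptor recombinase, and for P53 (gene symbol Trp53), the tumour suppressor that arrests damaged cells. The cells were untreated, in RPMI1640 medium supplemented with serum and 2-mercaptoethanol. The 2 samples, replicate 1 and replicate 2, form 1 group, and each was hybridised to a one-colour Agilent array on the same slide. Whether they come from separate cultures is not stated in the labels, and their spread may be technical. There is no second condition, and no test between conditions was possible.

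MYC binds DNA only as a dimer with MAX, at the E-box CACGTG, and recruits histone acetyltransferases that raise transcription. The MXD proteins, MXI1 and MNT also pair with MAX and bind the same site, but recruit the SIN3 corepressor and its histone deacetylases, so the balance of MAX partners sets the output of shared target genes. MGA pairs with MAX in a Polycomb-type repressor, and MLX joins the network to the glucose-sensing factors MLXIP and MLXIPL. In immature T cells Myc is a target of Notch signalling and drives growth and division, and its activation is common in T-cell leukaemia of mice and humans.

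Signals were well above background for 23649 probes on replicate 1 and for 22923 on replicate 2, and the 75th percentiles of the arrays were 324 and 299 intensity units. All 8 T-lineage markers were detected on both arrays (Cd3e, Cd3d, Cd3g, Ptcra, Lck, Thy1, Tcf7 and Bcl11b), with log2 values of 5.47 to 8.91 above the 75th percentile. Of the markers of other cells, 1 of 5 B-cell genes (Cd79a), 3 of 5 myeloid genes (Csf1r, Cd14 and Elane), 1 of 3 erythroid genes (Klf1) and 0 of 5 stromal or epithelial genes were detected. Those 5 genes had signals of 42.5 to 144 intensity units. Cd79a was detected with 1 of its 2 probes. The array places that probe on chromosome 12, and whether it reads Cd79a was not tested. On replicate 2, 1 of 308 negative control spots reached 101 units, below the signal of every detected member probe. Cd79b and Mpo, a B-cell and a myeloid marker, were well above background on 1 array each, and the remaining markers of these lists on the array were so on neither. The part of other cells in the values below was not tested. The Rag2 and Trp53 probes all gave signals well above background. A Rag2 probe had 88.3 units on replicate 2, below the 101 units of that negative control spot. Since the labels do not give the deleted parts, these signals check nothing about the genotype.

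The probes are 60-base oligonucleotides printed in the sense of the transcript. The sequences of all but the Mxd1 and Mxd3 probes, which are not shown, are given 5′ to 3′ from the scanner files, whole for Myc and Mlx and as bases 1 to 30 of the probe for the others, with mm9 coordinates.
Myc, chr15:61821417-61821476, plus strand: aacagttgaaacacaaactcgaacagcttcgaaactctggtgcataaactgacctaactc
Mlx, chr11:100952426-100952485, plus strand: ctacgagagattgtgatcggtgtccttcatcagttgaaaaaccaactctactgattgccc
Max, chr12:78038302-78038331, minus strand: cccaagaattgtcctgcaagttaaggcttc
Mnt, chr11:74658915-74658944, plus strand: aaagaggtggcccttgtttacagtgaggac
Mga, chr2:119792479-119792508, plus strand: caggtcatcagcacttaacctttcctgttt
Mycn, chr12:12943223-12943252, minus strand: tgtactaattcctacacggcctgtatactt
Mxi1, chr19:53450238-53450267, plus strand: ccaaaaagccccatttctgaaatcctggtt
The Mxd4 probes overlap, and the 30 bases of each around the overlap are shown because the array reads this gene through neighbouring stretches. The capitals mark the 13 bases they share.
Mxd4 probe at base 1025, bases 31 to 60, chr5:34519323-34519352, minus strand: atcattccagaagtattAAATATCATTTCT
Mxd4 probe at base 1072, bases 1 to 30, chr5:34519306-34519335, minus strand: AAATATCATTTCTacaaatctcggcaggat
No member probe shared a run of 20 bases, on either strand, with a probe of another gene. The Myc probe names all 4 curated RefSeq transcripts of its gene, the Max probe 2 of 4 and the Mxi1 probe 3 of 7. Whether a probe lies in a coding exon or an untranslated region was not analysed here.

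Of the 10 members, 8 were well above background on both arrays: Myc, Max, Mlx, Mnt, Mga and the 3 MXD genes. Mycn and Mxi1 were not well above background on either array. In RNA of a whole culture, fewer expressing cells and less RNA per cell cannot be told apart. Over all named genes of the array, 11496 of 22221 passed the same criterion, or 51.7%. At the level of probes, 10 of 12 member probes passed, where 40.1% of all probes did. Both probes of Mxd1 and both probes of Mxd4 passed, so the count of genes did not rest on a choice between probes. The levels given next are log2 signals minus the 75th percentile of the array, as mean ± SD of the 2 arrays (n = 2). Signals of different probes depend on the probe, so levels were not compared between genes.

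Myc encodes the activating partner of the network. Its probe, the only member probe printed on more than 1 spot, starts at base 1899 of transcript NM_010849. The spots gave 8435 and 9094 intensity units on replicate 1, and 7479 and 7569 on replicate 2. The spots of replicate 1 were thus both brighter before scaling, on the array whose 75th percentile was also the brighter. After scaling, Myc had a log2 value of 4.76 on replicate 1 and 4.65 on replicate 2, or 4.71 ± 0.07. In the authors' deposited table, the same spots had log2 values of 12.93 and 13.04 on replicate 1 and 12.91 and 12.93 on replicate 2. Pvt1, the non-coding RNA gene downstream of Myc on chromosome 15, was detected with 2 of its 3 probes, at -0.13 ± 0.11 and -0.29 ± 0.33. The probe with the lower value shares a run of 20 bases with 1 detected probe that does not carry the name Pvt1. The probe that was not detected lies at chr15:61512565-61512624 of mm9, on the other side of the Myc probe from the 2 detected ones.

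Mycn encodes N-MYC, a paralogue of MYC best known from neuroblastoma and from the embryo. Its probe (NM_008709, base 2242) had 6.57 intensity units on replicate 1 and 7.57 on replicate 2. On both arrays that number is a surrogate, which the scanner software writes in place of a signal it cannot tell from background. The lowest signal of any probe well above background was 28.9 units on replicate 1 and 31.1 on replicate 2, and the Mycn signals lay below both. Since the software makes the call for each spot, these values are no strict bound: Col3a1 had 30.2 units on replicate 1 and was not well above background there. Mycl, which encodes the third MYC protein with a MAX-binding domain and is named Mycl1 on the array, was not well above background either, with surrogates of 6.90 and 8.23 units.

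Max, the obligate partner of MYC and of the MXD proteins, had 9003 intensity units on replicate 1 and 7494 on replicate 2 (NM_008558, base 1929). Its log2 values were 4.80 and 4.65, or 4.72 ± 0.10. Mlx, which takes the place of MAX in the glucose-sensing arm, had 2319 and 2196 units (NM_011550, base 879). Its log2 values were 2.84 and 2.88, or 2.86 ± 0.03, the smallest SD among the detected member probes. The genes for both common partners were thus measured on both arrays.

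**Figure D1:**
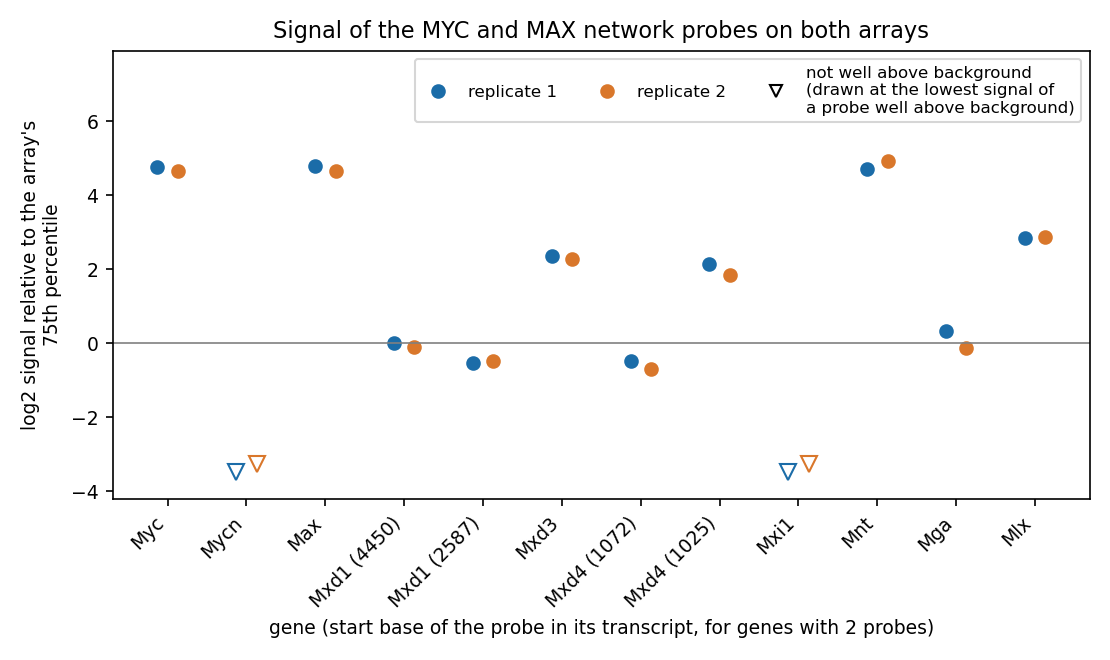
Log2 signal of the 12 member probes relative to the 75th percentile of each array (grey line at 0), with 1 filled point per array. The open triangles mark the probes of Mycn and Mxi1, which were not well above background and are drawn at the lowest signal of a probe well above background. The 2 arrays differ most for Mga, by 0.45, and heights of different probes are not comparable levels.

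The MXD genes encode MAX partners that recruit SIN3 and oppose MYC, and the group is known for its rise when cells stop dividing and differentiate. Mxd3 differs in that it is known from work in mouse cells to be present in S phase of dividing cells. The Mxd1 probe at base 4450 of NM_010751 gave 329 intensity units on replicate 1 and 280 on replicate 2. Its log2 value was -0.04 ± 0.08. The other Mxd1 probe, at base 2587, had 224 and 215 units and a log2 value of -0.51 ± 0.04. The probes start 1863 bases apart in the genome, and both were detected on both arrays. Mxd3 had 1672 units on replicate 1 and 1454 on replicate 2 (NM_016662, base 768, chr13:55427000-55427059), with a log2 value of 2.33 ± 0.06.

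The brighter Mxd4 probe, at base 1025 of NM_010753, had 1430 intensity units on replicate 1 and 1069 on replicate 2. Its log2 values were 2.14 and 1.84, or 1.99 ± 0.21. The overlapping probe at base 1072 had 233 and 186 units, and log2 values of -0.47 and -0.69. Although these probes share 13 bases and read the same transcript, their signals lay on either side of the 75th percentile. Within each probe, replicate 2 was the lower array.

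Mxi1, which encodes a further SIN3-recruiting MAX partner, had 6.14 intensity units on replicate 1, a surrogate, and 7.32 units on replicate 2. The software marked the spot of replicate 2 as positive and significant but not as well above background. Like those of Mycn, its signals lay below the lowest signal of a probe well above background on the same array. The Mxi1 probe lies at base 5093 of transcript variant NM_001008542, and no other probe carries that gene name.

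Mnt encodes the MAX partner that, unlike the MXD proteins, is found in dividing and resting cells alike and competes with MYC for MAX. It had 8541 intensity units on replicate 1 and 9022 on replicate 2 (NM_010813, base 4273). Its log2 values were 4.72 and 4.92, or 4.82 ± 0.14. Mga, which carries a T-box in addition to the helix-loop-helix domain, had 410 units on replicate 1 and 276 on replicate 2 (NM_013720, base 11092). Its log2 values were 0.34 and -0.12, or 0.11 ± 0.32, the largest SD among the detected member probes. Mga was thus above the 75th percentile on replicate 1 and below it on replicate 2.

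The arrays were compared next, as replicate 2 minus replicate 1 on the log2 scale. With 1 array a replicate there is no test per gene, so each difference was set beside the error that the scanner software gives for the signals, combined over both arrays. It is the software's own estimate and not a spread measured between arrays. On replicate 1 it was 844 units beside 8435 for a Myc spot and 900 beside 9003 for Max. For the detected member probes that error was 0.14 (Myc) to 0.22 on the log2 scale. The Myc error is the smallest because its 2 spots on each array were treated as independent. Taking the brighter probe of each gene, the difference was larger than the error for 2 of 8 detected members, Mga (-0.45, error 0.21) and Mxd4 (-0.30, error 0.20). Over all 11496 detected genes the share was 37.0%, and 21.0% were past the error in the direction of Mga and Mxd4. The other Mxd4 probe differed by -0.21, with an error of 0.22. The count depended on the scaling and the background correction. It was 6 of 8 members with the arrays scaled by their medians, where 64.4% of all detected genes were past the error. With 42.5% and 41.2% of probes well above background on replicates 1 and 2, that median falls among probes not well above background. With normexp the count was 4 of 8, where 32.7% of all detected genes were past the error. Myc was among those 4, at -0.16, against its smaller error of 0.14. Mga and Mxd4 were among the members past the error in all 7 alternatives.

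With the 75th percentile, the remaining members differed by less than the error. Myc differed by -0.10, Max by -0.15 and Mxd3 by -0.08. The Mxd1 probes differed by -0.12 (base 4450) and 0.06 (base 2587). Mnt differed by 0.20 and Mlx by 0.04. They turned to -0.03 and -0.19 when the arrays were scaled by their medians. That step put the median of all detected genes at -0.26 in place of -0.03. Mnt was past the error, at 0.23 to 0.24, with the 75th percentile over detected probes, quantile normalization, normexp and the deposited table. The median difference of the 8 members was -0.11, and 6 of them were lower on replicate 2, as were 56.2% of all detected genes. None of the 8 was over 2-fold apart, where 0.783% of all detected genes were.

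**Figure D2:**
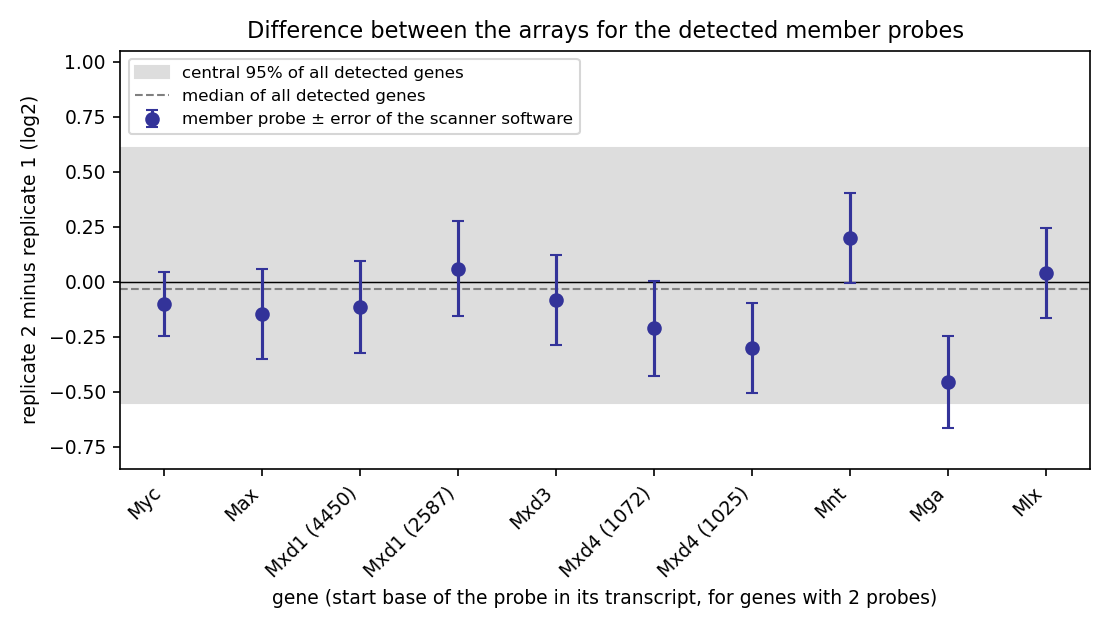
Replicate 2 minus replicate 1 (log2) for the 10 detected member probes, with the error of the scanner software as bars. The grey band spans the central 95% of all detected genes (-0.55 to 0.61) and the dashed line their median (-0.03). Every member probe lies inside the band, and the bars of Mga and of the Mxd4 probe at base 1025 do not reach 0. Mnt and Mlx, above 0 here, fall below 0 under scaling by the array median.

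The promoters of the members were searched for the network's own binding site, CACGTG, which reads the same on both strands. RefSeq windows of GRCm38.p6, from 250 bases before to 50 after a gene's start, were matched by symbol for 9 of the 10 members, all but Myc. The motif was found in 4 of the 9, Mxd4, Mnt, Mlx and Max. Over all genes with such a window it was found in 8.09% of 27025, and over the genes detected on these arrays in 12.0% of 9109. The matches are shown with the motif in capitals and 7 bases on either side.
Max, 3 bases before the start, chr12:76962239-76962258, minus strand: gcccggtCACGTGttagggg
Mlx, 40 bases before the start, chr11:101087243-101087262, plus strand: gttggatCACGTGactgagc
Mnt, 123 bases before the start, chr11:74830794-74830813, plus strand: cccaagcCACGTGtgcgcgc
Mxd4, 219 bases before the start, chr5:34187917-34187936, minus strand: gggccacCACGTGctgttgc
All 4 of these genes were detected, and the windows of Mxd1, Mxd3 and Mga, which were detected too, held no such letters. A match is a description of these windows, and binding was not measured.

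The genes around the network were counted in 9 lists with 111 distinct genes, of which 102 were detected, beside the 51.7% of all named genes. The lists were chosen with earlier results of these data known, and the part of that choice in their share was not tested. In the wider network, Mlxip and Mlxipl, the glucose-sensing partners of MLX, were each detected with 1 of 2 probes, and Mycl was not detected. The detected Mlxip probe, for transcript NM_133917, had a log2 value of 0.25 ± 0.13, while the probe for NM_177582 was not well above background. The detected Mlxipl probe, named for an Ensembl transcript, had 2480 intensity units on replicate 1 and 1430 on replicate 2, or 2.60 ± 0.48, while the probe for NM_021455 was not well above background. With every probe of a gene required, 0 of these 3 genes counted as detected, where 44.6% of all named genes did. Of the 4 target genes of the glucose-sensing arm, Txnip (1.24 ± 0.66), which restrains glucose uptake, and Fasn (1.86 ± 0.10), the fatty acid synthase, were detected. Arrdc4, a relative of Txnip, and Pklr, the liver-type pyruvate kinase, were not.

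Other factors of the same domain type that also bind E-boxes were mostly present, with 8 of 9 detected. These included the ubiquitous factors Usf1 (0.97 ± 0.33) and Usf2 (4.73 ± 0.12) and the lysosomal and autophagy regulators Tfe3 (2.29 ± 0.05) and Tfeb (0.57 ± 0.33). Tfec, a relative of the MITF factor, was not well above background. Tfeb was detected with 1 of its 2 probes, and 7 of the 9 genes counted if all probes of a gene had to pass.

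Genes for coactivators and partners of MYC were detected for 15 of 16. Trrap, the scaffold of its acetyltransferase complexes, had a log2 value of 2.06 ± 0.09. The acetyltransferases Kat5 and Kat2a had 4.12 ± 0.05 and 4.69 ± 0.14, and the remodeller Ep400 had 2.03 ± 0.19. Trrap and Ep400 were each detected with 1 of 2 probes. If all probes of a gene had to pass, 12 of the 16 counted as detected, beside 44.6% of all named genes. Zbtb17, which encodes MIZ1, the zinc-finger partner through which MYC represses genes, was not well above background (6.70 units on replicate 1 and 7.88 on replicate 2). The list headed as repressed through MIZ1 held 4 genes, and whether each is repressed that way was not tested. The cell cycle inhibitor Cdkn1c (1.77 ± 0.17) and the damage-response gene Gadd45a (0.01 ± 0.07) were detected. The inhibitors Cdkn1a and Cdkn2b were not detected with any of their 3 and 2 probes. When a signal that the software marks as positive and significant was enough, all 4 passed, beside 67.5% of all named genes.

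The corepressor genes for the MXD, MXI1 and MNT side were all detected, 16 of 16. That count was 15 if all probes of a gene had to pass. Among the 16 genes, Arid4b, named after its values were seen, had 64.5 units on replicate 2. That is below the 101 units of the brightest negative control spot on that array. The scaffolds Sin3a and Sin3b had log2 values of 2.15 ± 0.00 and 6.68 ± 0.06, and the deacetylases Hdac1 and Hdac2 had 7.29 ± 0.02 and -0.22 ± 0.33. The Polycomb-type complex around MGA was also detected in full, 12 of 12. It included Pcgf6 (2.50 ± 0.18), its Polycomb RING-finger protein, L3mbtl2 (1.73 ± 0.36), a chromatin reader, and E2f6 (2.85 ± 0.24) with its dimer partner Tfdp1 (4.36 ± 0.01). Wdr5 stands both in this list and among the MYC coactivators.

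Genes of MYC protein turnover and upstream control were detected for 17 of 18, or for 16 when every probe was required. Notch1 and Pvt1 count among the 17. The ubiquitin ligase subunits Fbxw7 and Skp2 had log2 values of 2.03 ± 0.04 and 2.87 ± 0.03, and the ligases Huwe1 and Stub1 had 4.90 ± 0.12 and 4.58 ± 0.00. Cip2a, an inhibitor of the phosphatase that destabilises MYC, listed on the array as C330027C09Rik, was not well above background. Of the genes known as targets that MYC activates, 29 of 30 were detected. Among them were Odc1, the first enzyme of polyamine synthesis (5.58 ± 0.06), the nucleolar genes Ncl (7.66 ± 0.08) and Npm1 (8.57 ± 0.17), and the rRNA methyltransferase Fbl (5.39 ± 0.06). The cyclin gene Ccnd2 was the only member of that list not detected (19.4 and 8.32 units). Cad and Tert, named after their values were seen, counted as detected with 85.9 and 83.1 units on replicate 2. Both lay below the 101 units of the brightest negative control spot on that array. With every probe of a gene required, 26 of the 30 were detected, where 44.6% of all named genes were.

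**Figure D3:**
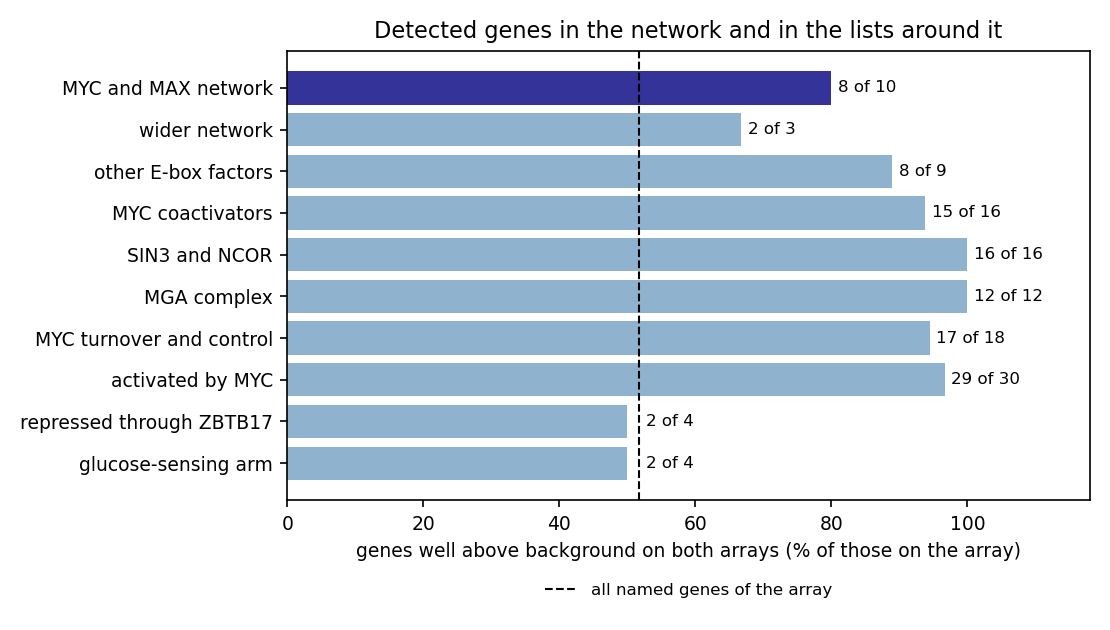
Share of genes well above background on both arrays in the network (dark bar, 8 of 10) and in the 9 lists around it, as a percentage of the listed genes on the array. The dashed line marks the 51.7% of all named genes. The members and lists were chosen with earlier results of these data known. The bars of the SIN3 and NCOR list and of the MGA complex reach 100%. The list headed as repressed through ZBTB17 and that of the glucose-sensing arm stand at 50%.

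No gene of these lists was over 2-fold apart between the arrays. The widest differences, named after their values were seen, were those of Txnip (-0.93), Arid4b (-0.87), Srebf2 (0.76) and Suds3 (0.73). Among the E-box factors 4 of 8 were past the software error, all 4 higher on replicate 2, a direction in which 16.0% of all detected genes were past it. In the MGA complex 6 of 12 were past it, beside 37.0% of all detected genes, and 5 of them were lower on replicate 2, beside 21.0%. Of the 29 detected genes that MYC activates, 11 were past it, a share near the 37.0% of all detected genes, with 6 higher and 5 lower on replicate 2 and a median difference of -0.01. Among the MYC coactivators and partners 3 of 15 were past it, all lower on replicate 2. In the SIN3 and NCOR list 5 of 16 were, 4 of them higher on replicate 2. For MYC turnover and upstream control 6 of 17 were, 4 of them lower. In each remaining list 1 of 2 was, lower on replicate 2. These counts are given for the main scaling only, and the count of members depended on the scaling.

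**Figure D4:**
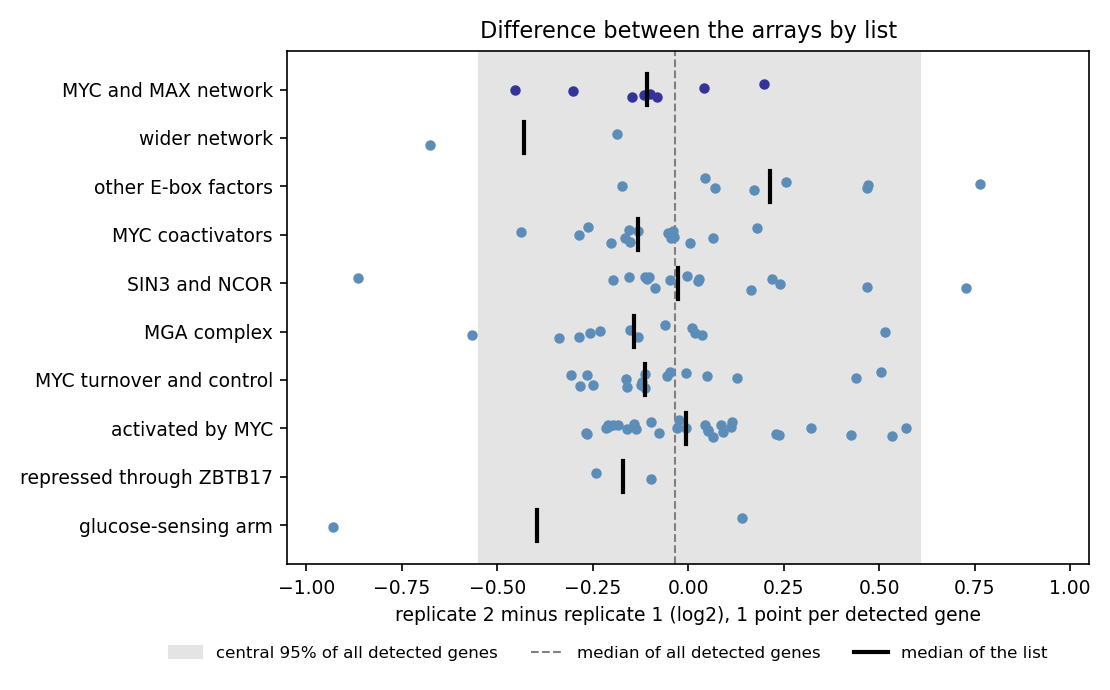
Replicate 2 minus replicate 1 (log2) for each detected gene, 1 point per gene, by list, with the median of each list as a black bar. The grey band is the central 95% of all detected genes and the dashed line their median (-0.03). The 8 members lie between -0.45 and 0.20, inside the band, with Mnt and Mlx on the right of 0 only where the arrays were not scaled by their medians.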

How the data were processed

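Both scanner files hold intensity values that the authors obtained with Agilent Feature Extraction 10.5.1.1, per the submitters' processing notes and the file headers. Per the file headers, a spatial background was subtracted, a multiplicative trend removed, and signals near background replaced by surrogates. The authors also deposited a table of log2 values of the same spots, used as an alternative. Its medians were 5.18 on both arrays and its slope against the scanner log2 values 0.997 and 1.01, while its offset and centring stay unknown.

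Flagged spots were left out (182 and 186, none of a member), log2 signals were averaged per probe, and the 75th percentile of the array over all non-control probes was subtracted. Detection of a probe required that at least 50% of its spots were marked well above background on each array, and a gene was detected through any of its probes. Genes with several detected probes are represented by the brightest on average. Genes other than the members were named through a RefSeq table of assembly GRCm38.p6, by accession, symbol or synonym. All members and, of each list, the first 4 detected genes and those not detected are named. The members and lists were chosen with earlier results of these data known. The number of arrays, 2, limits the precision. Python 3.11.15, pandas 2.3.3 and, for normexp, limma 3.58.1 were used, and the comparison of the arrays was tested on simulated data.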

Additional observations from a re-analysis of the deposited data

How the results depend on the processing

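The count of detected members held at 8 of 10 under all 6 alternatives tried. These were detection on 1 array, a positive and significant signal, every probe required, flagged spots kept, and without replicate 1 or 2. Keeping flagged spots could not change the count, since no member spot was flagged. Detection on 1 array and leaving out a replicate could only raise it. Requiring every probe could lower it only through Mxd1 or Mxd4, the members with 2 probes. The list genes numbered 91 with every probe required and 105 with a positive and significant signal, beside 102, and 102 without either replicate. The share of all named genes was 44.6% with every probe required and 67.5% with a positive and significant signal. It was 51.7% to 54.3% in the other alternatives, beside 51.7%. The median level of the detected members was 2.59. It was -0.92 with the 75th percentile over detected probes, 6.59 with the array median, 2.32 with normexp and 2.61 with the deposited table, and 2.58 to 2.60 without a replicate. The first 2 of these move the zero from which all levels are counted, and for the others the cause was not tested. The number of members past the software error, 2, was 6 with the array median and 4 with normexp, beside 64.4% and 32.7% of all detected genes, and 2 or 3 otherwise, beside 35.7% to 37.1%. Of 56 alternative values of single members' differences, 48 moved by less than the software error and 8 by more, all with the array median. Mnt and Mlx changed sign with the array median. Mga and Mxd4, the members past the error in the main setting, were lower on replicate 2 in every alternative. No paired analysis was possible because the series holds 1 group. No level can be given for Mycn and Mxi1 at this signal over background.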

Other observations

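The array also holds Bmyc, a rodent gene related to Myc that encodes the amino-terminal part of the protein without the domain that binds MAX and DNA. It lies outside the gene names that define the network and was named after its values were seen. Its probe (NM_023326, chr2:25562947-25563006 of mm9) was well above background on both arrays, with 386 intensity units on replicate 1 and 296 on replicate 2. Its log2 value was 0.12 ± 0.19 (n = 2), and the arrays differed by -0.26, with a software error of 0.21. The probe shared no run of 20 bases with a probe of another gene.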
